A study of Mus musculus with 4 samples.

Results

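The genes described here encode 9 histone-based silencing factors that act on retrotransposons: Ehmt1, Ehmt2, Setdb1, Trim28, Suv39h1, Suv39h2, Morc1, Hells and Cbx5. They were chosen by gene symbol, and all 9 were found among the 23980 genes of the deposited table. RNA of leptotene/zygotene (L/Z) spermatocytes, germ cells in the first stages of meiosis, was measured by polyA(+) RNA-seq in 4 libraries. All 4 came from cells sorted by fluorescence at 3 to 4 weeks of age from F1 hybrid mice of the strains C57BL6/J and MSM/Ms. The genotypes were Dnmt3L Het and Dnmt3L KO in one mutant line, and Pld6 WT and Pld6 KO in the other. The Dnmt3L Het library (control replicate 1) and the Pld6 WT library (control replicate 2) served as controls, and each KO had 1 library. The Dnmt3L Het control carries the mutant allele on one chromosome. Both KO mutations are carried throughout the animal and not in germ cells alone. The germ cells of both mutants die late in zygotene, so that the mutant testes hold no later stages. The labels do not say how many animals each library holds.

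Transposable elements are held silent in germ cells partly by histone H3 methylated on lysine 9 (H3K9). The paralogs EHMT1 (GLP) and EHMT2 (G9a) form one complex that places mainly the mono- and dimethyl marks. SETDB1 places the trimethyl mark where the corepressor TRIM28 (KAP1) brings it, usually through KRAB zinc finger proteins. SUV39H1 and SUV39H2 trimethylate H3K9 in pericentric heterochromatin and at some retrotransposons. CBX5 (HP1-alpha) binds the methylated histone. HELLS (LSH) is a chromatin remodeller needed for DNA methylation of repeats, and MORC1 is a germ-line ATPase needed for retrotransposon repression in the male germ line. PLD6 acts in the making of piRNAs, and DNMT3L is the cofactor of de novo DNA methylation. The mutations of this study are thus not in the 9 genes, although HELLS and DNMT3L both act in DNA methylation.

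All 9 genes were transcribed in all 4 libraries, and none was more than 2-fold above or below both controls in either mutant. Cbx5 and Ehmt1 were the members whose level was higher in both mutants than in both controls (13.6% of all genes). Such shares are of the 14416 genes with a mean of at least 1 FPKM. The other 7 members separated the libraries by mutant line instead, with both Pld6 line libraries above both Dnmt3L line libraries (26.2% of all genes). Both statements hold for FPKM as the authors scaled it. Relative to the summed level of the L/Z markers, 0 of 9 members separated by line (1.4% of all genes). On that scale all 9 were higher in both mutants than in both controls, as were 47.1% of all genes. With 1 library per mutant these differences have no replicate check.

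The promoters of Cbx5 and Ehmt1 are shown because these 2 genes had similar patterns over the libraries, and those of Hells and Setdb1 as examples of the genes that separated by line. Each is the 250 bases upstream of a RefSeq start site in GRCm38.p6, which has the coordinates of mm10, written 5′ to 3′ on the strand of the gene. Capitals mark matches to GCGGGA (the core of the E2F motif), CACGTG (an E-box), CCAAT or TGACGTCA (a cyclic AMP response element), searched on both strands.

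Cbx5: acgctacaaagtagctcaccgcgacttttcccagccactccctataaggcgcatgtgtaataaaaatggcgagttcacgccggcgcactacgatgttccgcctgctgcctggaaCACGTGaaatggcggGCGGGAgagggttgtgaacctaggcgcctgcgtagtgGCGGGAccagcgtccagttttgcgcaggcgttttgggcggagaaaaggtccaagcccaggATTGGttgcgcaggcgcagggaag
Ehmt1: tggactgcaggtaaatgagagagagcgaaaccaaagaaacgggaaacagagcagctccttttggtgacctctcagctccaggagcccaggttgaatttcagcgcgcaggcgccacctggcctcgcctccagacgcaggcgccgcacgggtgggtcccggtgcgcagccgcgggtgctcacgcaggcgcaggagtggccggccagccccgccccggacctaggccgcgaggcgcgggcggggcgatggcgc
Hells: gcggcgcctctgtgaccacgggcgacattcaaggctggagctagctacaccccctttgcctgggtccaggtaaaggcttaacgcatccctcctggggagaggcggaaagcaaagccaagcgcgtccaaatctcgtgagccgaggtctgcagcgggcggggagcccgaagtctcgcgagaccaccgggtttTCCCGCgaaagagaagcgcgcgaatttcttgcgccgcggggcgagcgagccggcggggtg
Setdb1: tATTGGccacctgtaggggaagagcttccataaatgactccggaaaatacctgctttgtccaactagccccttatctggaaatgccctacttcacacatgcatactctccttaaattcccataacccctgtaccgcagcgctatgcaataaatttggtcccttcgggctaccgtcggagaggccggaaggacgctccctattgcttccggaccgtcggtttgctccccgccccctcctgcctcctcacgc

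The Cbx5 window is chr15:103239853-103240102 on the minus strand, and it belongs to the more upstream of 2 start sites listed for the gene. The Ehmt1 window is chr2:24919610-24919859 on the minus strand, the Hells window chr19:38930740-38930989 on the plus strand, and the Setdb1 window chr3:95357203-95357452 on the minus strand. Longer gene models of Cbx5, Ehmt1 and Hells begin further upstream, so those windows overlap transcribed sequence of some models. The Cbx5 window holds 2 E2F cores, 1 E-box and 1 CCAAT box, whereas none of the 4 motifs is in the Ehmt1 window. The RefSeq table holds 11 promoters of 8 members, some of which have more than 1. The E2F core was found in 4 of these 11 promoters (of Cbx5, Hells, Suv39h2 and Trim28), against 16.9% of 32851 promoters of the same length. The E-box was found in 3 promoters (of Cbx5 and Ehmt2), against 6.02% of all promoters, and the CCAAT box in 3 (of Cbx5, Setdb1 and Suv39h1), against 33.8%. The response element was found in 1 promoter (of Suv39h2), against 1.55%. The E-box and the response element do not overlap any other match in these windows. The 11 windows held 51.2% to 84% G and C and 7 to 36 CpG sites (a C followed by a G). The medians of all promoters were 52.4% and 6. The E2F core, the E-box and the response element each contain a CpG, and the part of base composition in these counts was not tested. A match describes the letters only and was not tied to any factor.

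**Figure D1:**
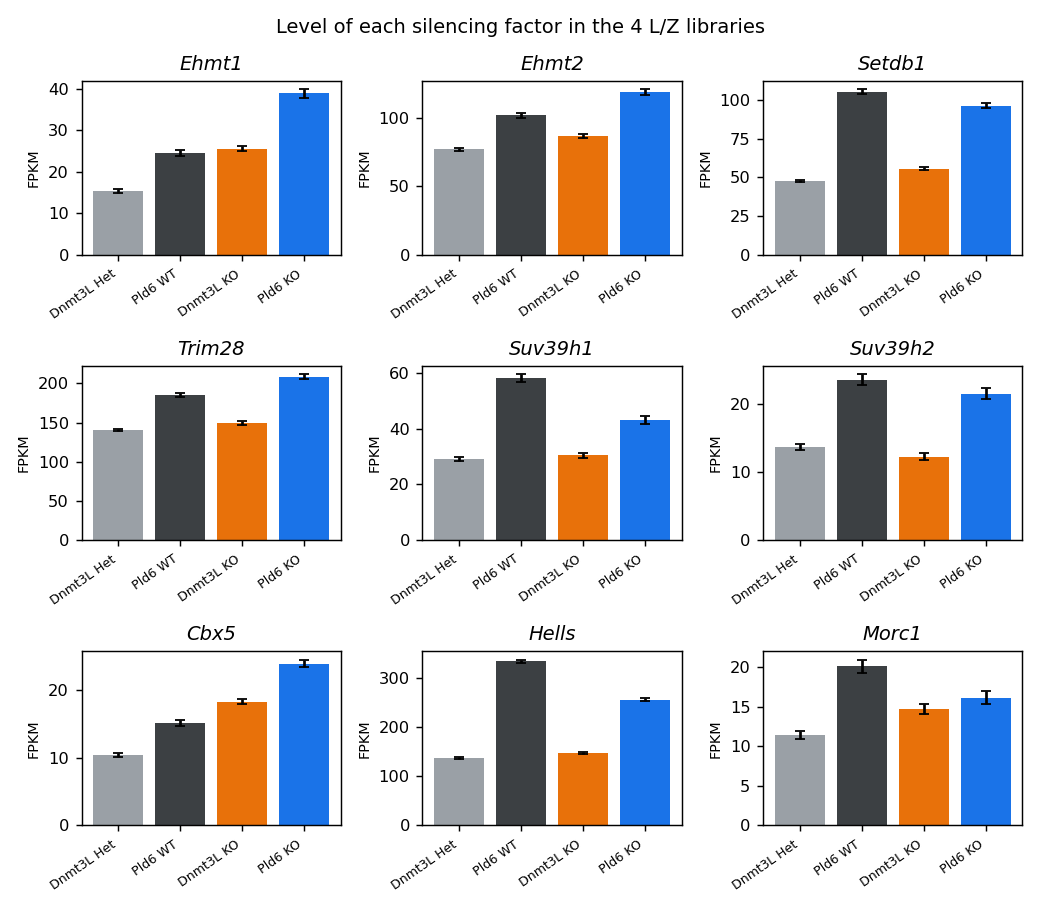
FPKM (fragments scaled to gene length and library depth) of each of the 9 genes in the Dnmt3L Het, Pld6 WT, Dnmt3L KO and Pld6 KO libraries; bars start at 0 and the error bars are 95% Poisson intervals of the fragment counts (counting error only). Cbx5 and Ehmt1 are the 2 panels in which both mutants stand above both controls, and in the other 7 panels both Pld6 line libraries stand above both Dnmt3L line libraries.

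Levels are given in FPKM, which the authors' tool scaled to gene length and library depth and which can therefore be compared between genes. The members fell into 3 ranges. Hells and Trim28 were the most abundant, with mean levels over the 4 libraries of 218 and 171 FPKM, ranks 384 and 505 of the 14416 genes with a mean of at least 1 FPKM. Ehmt2 (95.9), Setdb1 (76.3), Suv39h1 (40.3) and Ehmt1 (26.1) followed. Suv39h2 (17.7), Cbx5 (16.9) and Morc1 (15.6) were the lowest, near the middle of the genes tested, at percentiles 57.4, 56.1 and 53.8. Between 1459 and 38239 fragments supported each value, which gave 95% counting intervals of 1% to 5.17% on either side. The study's methods state fewer reads per L/Z library than the table holds fragments, and do not say whether that figure covers these F1 hybrid libraries. If it does, the reason is not given in the sources used here, and these intervals may be too narrow. Adjacent members in this order were closer than the spread between the 2 controls in several cases: Suv39h2 had a control mean of 18.5 ± 7.04 FPKM (SD, n = 2), Morc1 of 15.8 ± 6.20 and Cbx5 of 12.7 ± 3.35.

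The libraries were first checked for their labels. Pld6 was at 0.334 FPKM (14 fragments) in Pld6 KO, against 19.5 FPKM in Pld6 WT and 17.2 in Dnmt3L Het, and it was at 8.55 in Dnmt3L KO. Dnmt3l was at 0 fragments in Dnmt3L KO, which allows up to 3 fragments, and only at 1.27 FPKM in Dnmt3L Het, 0.980 in Pld6 WT and 0.432 (20 fragments) in Pld6 KO, so that this gene checks its label on few fragments. The 18 markers of L/Z spermatocytes were all at 1 FPKM or more in every library. Markers of other cells were present too. The summed level of 12 Sertoli cell markers was 3593 FPKM in Dnmt3L Het and 5086 in Dnmt3L KO, against 127 in Pld6 WT and 347 in Pld6 KO. Amh and Sox9, defining Sertoli genes, ranged from 14.6 to 31.9 FPKM in the Dnmt3L line and from 0.560 to 1.67 in the Pld6 line. The 11 spermatid markers summed to 7098 FPKM in Dnmt3L Het, 166 in Pld6 WT, 29.6 in Dnmt3L KO and 12.0 in Pld6 KO. The 8 markers of pachytene spermatocytes, the stage after zygotene, summed to 945 and 507 FPKM in the controls and to 18.8 and 20.6 in the mutants. These are bulk libraries, in which fewer cells of a type and less RNA per cell cannot be told apart.

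**Figure D2:**
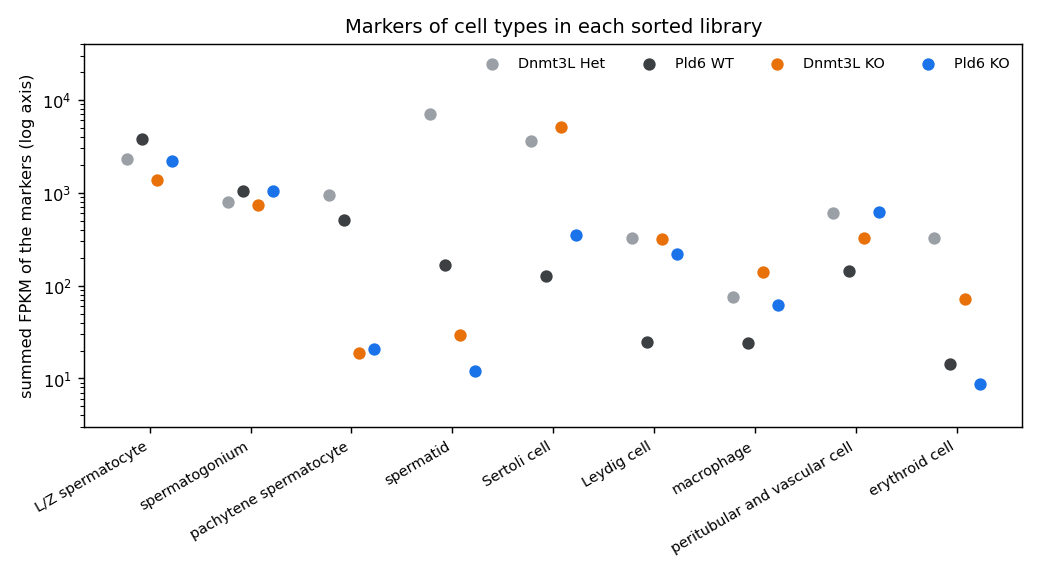
Summed FPKM of the markers of 9 cell types in each library, on a log axis; each point is 1 library. Sertoli markers are high in both Dnmt3L line libraries (3593 and 5086 FPKM), and pachytene markers are high in both controls (945 and 507 FPKM).

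Cbx5, the reader of methylated H3K9, was at 10.4 FPKM in Dnmt3L Het and 15.1 in Pld6 WT. It was at 18.3 FPKM in Dnmt3L KO and 23.9 in Pld6 KO. Both mutants were above both controls, and the counting interval of the lower mutant (17.9 to 18.7 FPKM) did not reach that of the higher control (14.7 to 15.5). Within each line, the mutant exceeded its control by 0.77 (Dnmt3L KO) and 0.63 (Pld6 KO) on the scale of log2(FPKM + 1), to which all log2 differences refer. The Dnmt3L KO value was marked as failed by Cuffdiff, although 7492 fragments were counted for it, the highest count of Cbx5 in any library. It is the only member value so marked, and it was kept as listed.

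Ehmt1, the smaller partner by level in the GLP and G9a pair, was at 15.4 FPKM in Dnmt3L Het and 24.6 in Pld6 WT. It was at 25.6 FPKM in Dnmt3L KO and 38.9 in Pld6 KO. Both mutants were above both controls, but by a margin of only 0.05 on the log2 scale between Dnmt3L KO and Pld6 WT, whose counting intervals overlapped (24.9 to 26.3 and 23.9 to 25.3 FPKM). Within each line, the mutant exceeded its control by 0.70 (Dnmt3L KO) and 0.64 (Pld6 KO) on the log2 scale. The patterns of Ehmt1 and Cbx5 over the 4 libraries lay at a Euclidean distance of 0.18 of centred log2 levels, the second smallest among the members after Ehmt2 and Trim28 (0.07).

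Both mutants were above both controls in 2 of 9 members, against 13.6% of the 14416 genes tested, and below both in 0 of 9, against 20.7%. The 2 mutants share these controls. The pachytene markers given above separated the libraries in the opposite direction, at 945 and 507 FPKM in the controls and 18.8 and 20.6 in the mutants. Within each line the mutant had the higher sum of Sertoli markers (5086 against 3593 FPKM in the Dnmt3L line, 347 against 127 in the Pld6 line). The same held for macrophage markers (139 against 74.6, and 62.5 against 24.3). Neither sum separated both mutants from both controls. Leydig and peritubular sums were higher in the mutant in the Pld6 line only. Spermatogonium, L/Z and erythroid sums were lower in the mutant in both lines. The part of these markers in the Cbx5 and Ehmt1 values was not tested.

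The paralog of Ehmt1 did not have this pattern. Ehmt2 was at 76.8 FPKM in Dnmt3L Het, 102 in Pld6 WT, 86.6 in Dnmt3L KO and 119 in Pld6 KO. Its log2 difference from the control of the same line was 0.17 in Dnmt3L KO and 0.22 in Pld6 KO. A ratio within a library does not depend on how the libraries were scaled. There were 4.98 FPKM of Ehmt2 for each of Ehmt1 in Dnmt3L Het (95% interval 4.82 to 5.14) and 4.13 in Pld6 WT (4.00 to 4.27), against 3.38 in Dnmt3L KO (3.28 to 3.49) and 3.05 in Pld6 KO (2.96 to 3.15). The ratio was lower in both mutants than in both controls, and the intervals of the 2 groups, which cover counting error only, did not meet. Such a ratio shows unequal levels of the 2 genes and not which one differed.

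Cbx5 likewise stood apart from its own paralogs. Cbx1 (HP1-beta) was at 50.1 FPKM in Dnmt3L Het, 69.2 in Pld6 WT, 48.3 in Dnmt3L KO and 44.9 in Pld6 KO. Cbx3 (HP1-gamma) was at 137, 185, 151 and 145 FPKM in the same order. In FPKM, though not relative to the L/Z markers, Cbx1 was thus lower in both mutants than in both controls, and the range of Cbx3 in the mutants lay inside that of the controls. Cbx5 made up 5.25% of the summed FPKM of the 3 HP1 genes in Dnmt3L Het and 5.61% in Pld6 WT, but 8.40% in Dnmt3L KO and 11.2% in Pld6 KO. Cbx3 held between 67.8% and 69.4% in all 4 libraries.

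**Figure D3:**
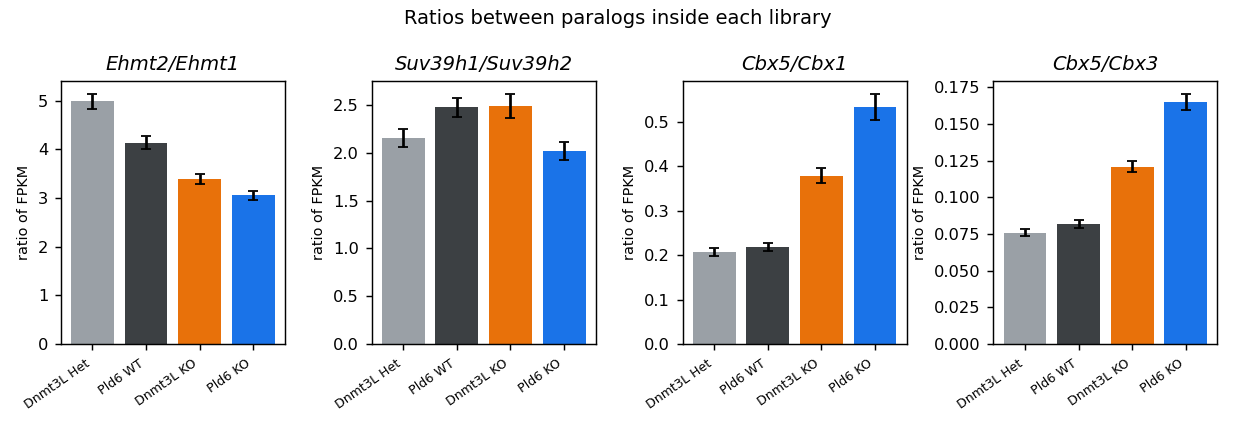
Ratios of FPKM between paralogs inside each library, with 95% intervals of counting error; bars start at 0. The Ehmt2 to Ehmt1 ratio is 4.98 and 4.13 in the controls and 3.38 and 3.05 in the mutants, the Cbx5 ratios are higher in both mutants, and the Suv39h1 to Suv39h2 ratio does not separate mutants from controls.

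Setdb1 and Trim28, the methyltransferase and the corepressor of one pathway, separated the libraries by line. Setdb1 was at 47.5 FPKM in Dnmt3L Het and 55.7 in Dnmt3L KO, against 105 in Pld6 WT and 96.3 in Pld6 KO. Trim28 was at 141 and 149 FPKM in the Dnmt3L line, against 186 and 208 in the Pld6 line. For both genes the mutant was close to the control of its own line, with log2 differences of 0.23 (Dnmt3L KO) and -0.13 (Pld6 KO) for Setdb1 and of 0.09 and 0.17 for Trim28. The line difference was larger for Setdb1. There were 0.338 and 0.373 FPKM of Setdb1 for each of Trim28 in Dnmt3L Het and Dnmt3L KO, and 0.568 and 0.462 in Pld6 WT and Pld6 KO.

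Suv39h1 was at 29.2 FPKM in Dnmt3L Het, 58.2 in Pld6 WT, 30.4 in Dnmt3L KO and 43.3 in Pld6 KO. Suv39h2, the paralog enriched in testis, was at 13.6, 23.5, 12.2 and 21.5 FPKM in the same order. The lowest Suv39h2 value was that of Dnmt3L KO and the highest that of Pld6 WT. Suv39h1 exceeded Suv39h2 by 2.15 and 2.48 times in the controls (Dnmt3L Het, Pld6 WT) and by 2.49 and 2.02 times in Dnmt3L KO and Pld6 KO, so that the mutant and control ranges overlapped. Suv39h2 overlaps Dclre1c in the annotation, a gene at no more than 10.4 FPKM in these libraries, and a strand setting of the counting is not given in the sources used here.

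Hells, the most abundant member, also had the widest range of FPKM among the 7 genes that separated by line. It was at 137 FPKM in Dnmt3L Het and 147 in Dnmt3L KO, against 333 in Pld6 WT and 255 in Pld6 KO. Hells and Trim28 were at nearly equal levels in the Dnmt3L line (0.972 and 0.983 FPKM of Hells for each of Trim28), while Hells was ahead in the Pld6 line (1.80 in Pld6 WT and 1.22 in Pld6 KO). Morc1 was at 11.4 FPKM in Dnmt3L Het, 20.2 in Pld6 WT, 14.7 in Dnmt3L KO and 16.2 in Pld6 KO. Both Morc1 values of the mutants lay between the 2 controls.

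Ehmt2, Setdb1, Trim28, Suv39h1, Suv39h2, Morc1 and Hells, 7 of 9 members, were higher in both Pld6 line libraries than in both Dnmt3L line libraries, against 26.2% of all genes tested. For Morc1 the separation was the narrowest, as the counting intervals of Pld6 KO (15.3 to 17.0 FPKM) and Dnmt3L KO (14.1 to 15.4) overlapped. The opposite order was seen in 0 of 9 members, against 26.1%. In the controls alone, all 9 were higher in Pld6 WT than in Dnmt3L Het (46.5% of all genes), and in the mutants alone the Pld6 KO library was above the Dnmt3L KO library for all 9 (48.7%). The median log2 difference of Dnmt3L Het from Pld6 WT was -0.75 over the members and 0.06 over all genes. That of Pld6 KO from Dnmt3L KO was 0.49 over the members and 0 over all genes. The summed Sertoli markers were lower in both Pld6 line libraries (127 and 347 FPKM) than in both Dnmt3L line libraries (3593 and 5086), whereas the 11 spermatogonium markers summed to 1048 and 1036 FPKM in Pld6 WT and Pld6 KO and to 793 and 740 in Dnmt3L Het and Dnmt3L KO. In the same order of libraries, Uchl1 alone was at 474, 468, 400 and 372 FPKM of the spermatogonium sums. Id4 had the opposite order by line, and Gfra1, Stra8 and Nanos3 did not separate by line. The part of the Sertoli or spermatogonium markers in the differences of the members was not tested. Relative to the L/Z markers the separation by line was seen in 0 of 9 members, against 1.4% of all genes.

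**Figure D4:**
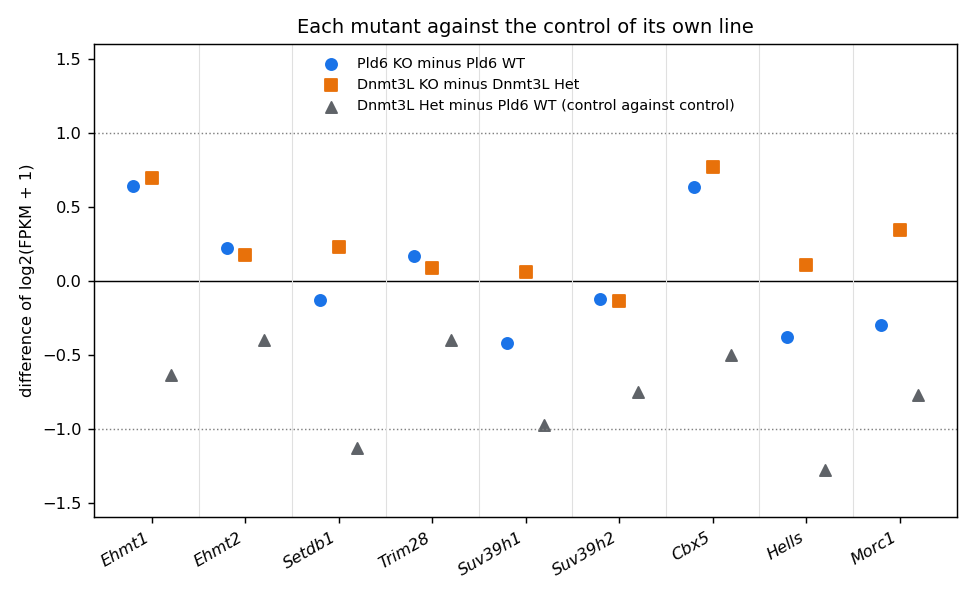
Difference of log2(FPKM + 1) for each member, between each mutant and the control of its own line and between the 2 controls; each point compares 1 library with 1 library, and dotted lines mark a 2-fold difference. Cbx5 and Ehmt1 lie between 0.63 and 0.77 in both lines, and the difference between the controls is below 0 for all 9 genes.

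Set against the mean of both controls, the members had a median log2 difference of 0.33 in Pld6 KO (from -0.01 for Suv39h1 to 0.92 for Ehmt1), beside -0.05 for all genes tested. In Dnmt3L KO the median was -0.13 (from -0.67 for Hells to 0.49 for Cbx5), beside -0.02. Against the control of the same line these medians were -0.13 in Pld6 KO (0.01 for all genes) and 0.17 in Dnmt3L KO (0.06 for all genes), so that each sign depended on the control used.

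By the rule of more than 2-fold beyond both controls, 0 of 9 members were higher and 0 lower in Pld6 KO, against 1.51% and 8.57% of all genes. In Dnmt3L KO 0 were higher and 0 lower, against 3.29% and 9.16%. At 1.5-fold, Ehmt1 and Cbx5 were counted as higher in Pld6 KO, against 5.88% of all genes, and 0 members as lower (12.4%). In Dnmt3L KO 0 members passed 1.5-fold in either direction (10.5% of all genes higher and 13.7% lower).

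In edgeR's quasi-likelihood test, 0 of 9 members were under an adjusted p of 0.05 for either mutant, and neither was any other gene (0% of 18657 in both). At an unadjusted p under 0.05 the test called 7.96% of the genes for Pld6 KO, 8.81% for Dnmt3L KO and 0 members. The smallest adjusted p of a member in edgeR was 0.9496 in Pld6 KO, for Ehmt1 and Cbx5, and 0.929 in Dnmt3L KO, for Hells. This model estimates its spread from the 2 controls, with 1 residual degree of freedom and a biological coefficient of variation of 0.589. When both mutants were pooled and line was added as a block, a model chosen after the values were seen that leaves 1 residual degree of freedom, edgeR called 0 members and 7.28% of all genes at an adjusted p of 0.05. Cbx5 and Ehmt1 had log2 differences of 0.71 and 0.66 in this model, with adjusted p of 0.158 and 0.184 in edgeR. They were the 2 of 9 members under an unadjusted p of 0.05, as were 18.8% of all genes. Both mutants stood above both controls for these 2 genes, so the same direction in 2 of 2 lines follows from that order. The model uses the same 4 libraries and is no separate check of it. This model treats the 2 mutations as one. Of the 17776 genes that received an adjusted p in DESeq2, it called 972 for Pld6 KO and 936 for Dnmt3L KO. Most of these were lower in the mutant, and 0 members were called. A p that misses the threshold here does not show that the levels were equal.

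The members were also set against the cells the sort aimed at. The L/Z markers summed to 2321 FPKM in Dnmt3L Het, 3830 in Pld6 WT, 1359 in Dnmt3L KO and 2181 in Pld6 KO. For every 1000 FPKM of these markers, Cbx5 stood at 4.46 and 3.94 in the controls (Dnmt3L Het, Pld6 WT), and at 13.5 in Dnmt3L KO and 10.97 in Pld6 KO. Ehmt1 stood at 6.65 and 6.42 in the controls, and at 18.8 and 17.8 in the mutants. Hells stood at 58.9 and 87.0 in the controls, and at 108 and 117 in the mutants. On this scale all 9 members were higher in both mutants than in both controls, as were 47.1% of all genes tested, and the median of all genes was above the controls by 0.30 (Pld6 KO) and 0.99 (Dnmt3L KO) on the log2 scale. On the same scale 0 of 9 members, and 1.4% of all genes, were higher in both Pld6 line libraries. Whether the L/Z markers or the members differ per cell cannot be told apart.

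**Figure D5:**
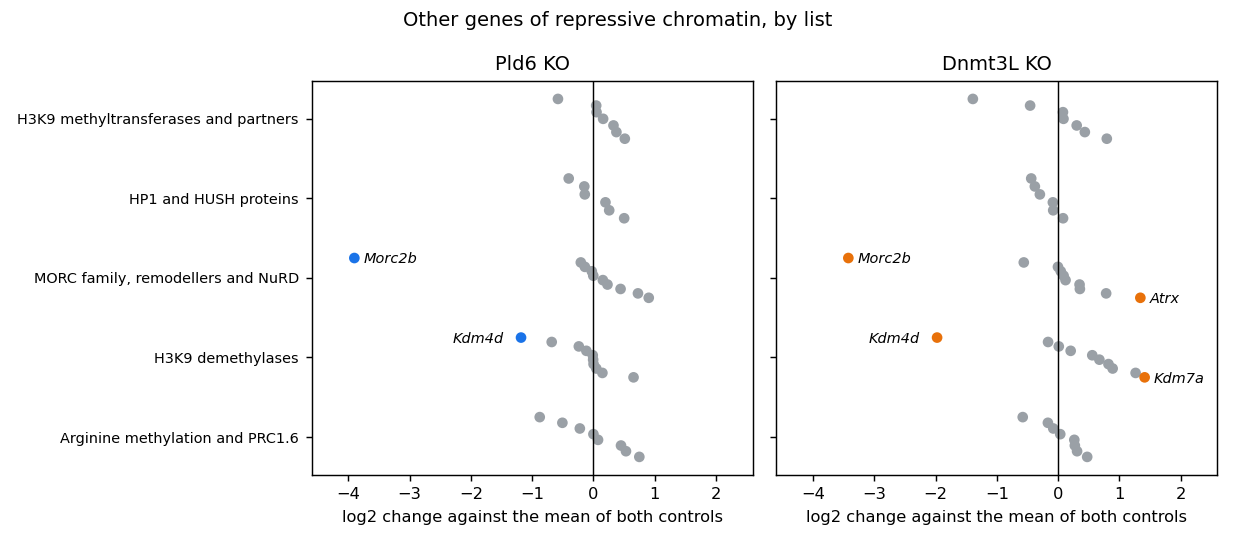
Log2 change of FPKM + 1 in each mutant against the mean of both controls for other genes of repressive chromatin, 1 point per gene; coloured points lie more than 2-fold beyond both controls. Morc2b and Kdm4d are lower in both mutants, and Atrx and Kdm7a are higher in Dnmt3L KO.

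Other genes of repressive chromatin were taken from 5 lists. Of the further H3K9 methyltransferases and partners, 0 of 7 tested were beyond both controls by more than 2-fold in either mutant, with a median log2 difference of 0.16 for Pld6 KO and 0.09 for Dnmt3L KO. Mecom, the eighth listed, was below a mean of 1 FPKM. Atf7ip2, which encodes a partner of SETDB1 in meiotic cells, was at 47.9 FPKM in Dnmt3L Het, 102 in Pld6 WT, 27.9 in Dnmt3L KO and 49.9 in Pld6 KO, with log2 differences of -1.39 in Dnmt3L KO and -0.58 in Pld6 KO. Its paralog Atf7ip, which stabilises SETDB1, was at 12.8, 16.8, 26.4 and 15.4 FPKM in the same order. Prdm16 had the next largest difference in Pld6 KO (0.51), at no more than 2.29 FPKM.

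Of the HP1 and HUSH genes, 0 of 6 were beyond both controls by more than 2-fold in either mutant, with medians of 0.03 (Pld6 KO) and -0.19 (Dnmt3L KO). The largest log2 differences were those of Morc2a (0.50) and Cbx1 (-0.40) in Pld6 KO, and of Mphosph8 (-0.44) and Pphln1 (-0.38) in Dnmt3L KO. MPHOSPH8 and PPHLN1 are core subunits of HUSH, a complex that silences retroelements through H3K9 methylation.

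Among 10 genes of the MORC family, remodellers and NuRD, 1 was lower in Pld6 KO (8.57% of all genes) and 0 higher (1.51%). In Dnmt3L KO 1 was lower (9.16%) and 1 higher (3.29%). The lower gene was Morc2b in both mutants, and the share of all genes lower in both at once was not counted. Morc2b was at 20.5 FPKM in Dnmt3L Het and 7.36 in Pld6 WT, but at 0.391 in Dnmt3L KO and was listed at 0 in Pld6 KO. Atrx, a remodeller that deposits histone H3.3 in heterochromatin with DAXX, was at 8.37 and 10.1 FPKM in the controls (Dnmt3L Het, Pld6 WT), 24.97 in Dnmt3L KO and 18.2 in Pld6 KO, with a log2 difference of 1.34 in Dnmt3L KO and 0.90 in Pld6 KO. The list had medians of 0.08 (Pld6 KO) and 0.10 (Dnmt3L KO).

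The H3K9 demethylases remove the mark that the methyltransferases place. Of 10 tested, 1 was lower and 0 higher in Pld6 KO, and 1 was lower and 1 higher in Dnmt3L KO. The shares of all genes in each mutant are those just given. The lower gene was Kdm4d in both mutants, and here too no joint share was counted. Kdm4d was at 9.82 FPKM in Dnmt3L Het and 9.63 in Pld6 WT, against 1.72 in Dnmt3L KO and 3.73 in Pld6 KO. Kdm7a was at 17.0, 13.5, 42.3 and 14.0 FPKM in the order Dnmt3L Het, Pld6 WT, Dnmt3L KO, Pld6 KO, so that Dnmt3L KO alone stood apart. The list had a median log2 difference of 0.61 in Dnmt3L KO and of -0.01 in Pld6 KO, beside -0.02 and -0.05 for all genes. The Sertoli and macrophage markers were highest in Dnmt3L KO, at 5086 and 139 FPKM, and their part in the median was not tested. The pachytene and spermatid markers were also lower in both mutants, and their part in the Morc2b and Kdm4d values was not tested.

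Of the arginine methylation and PRC1.6 genes, 0 of 8 were beyond both controls by more than 2-fold, with medians of 0.04 (Pld6 KO) and 0.15 (Dnmt3L KO). Rnf2 (-0.88) and Mga (0.75) had the largest log2 differences in Pld6 KO, and L3mbtl2 (-0.58) and Ring1 (0.47) in Dnmt3L KO. All 4 encode subunits of the PRC1.6 complex, which represses germ-line genes.

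The genes with patterns most like those of Morc1 and Suv39h2 were sought among 10611 genes with a mean of at least 5 FPKM, by Euclidean distance of centred log2(FPKM + 1) over the 4 libraries. Ppp3cb (0.03), Pyroxd1 (0.04) and Stx16 (0.05) were nearest to Morc1, and 359 genes lay within a distance of 0.25. Nanos1 (0.05), Lzts3 (0.06) and Stk38 (0.06) were nearest to Suv39h2, with 293 genes within 0.25. With 4 libraries many genes share any given pattern.

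The members lie on different chromosomes for the most part. In mm10, Ehmt1 spans chr2:24790769-24919643 and Suv39h2 chr2:3455815-3474986. Ehmt2 spans chr17:34898463-34914073, Setdb1 chr3:95323525-95357202, Trim28 chr7:13024152-13031032 and Suv39h1 chrX:8061171-8074760. Morc1 spans chr16:48431237-48630905, Hells chr19:38930262-38970470 and Cbx5 chr15:103191546-103239904. Setdb1 overlaps Cers2 at its end in the annotation. Cers2 was at 55.5 and 65.4 FPKM in Dnmt3L Het and Dnmt3L KO and at 12.0 and 16.2 in Pld6 WT and Pld6 KO, the reverse of the order of Setdb1 by line.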

How the data were processed

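PolyA(+) RNA of FACS-purified L/Z spermatocytes was sequenced in 4 libraries (stranded kit, 50 bp from 1 end). The authors aligned the reads with TopHat to mm10 and quantified genes with Cuffdiff, in versions not given in the sources used here. The deposited table lists estimated counts of fragments per gene and library, 97.3% to 97.4% of them whole within 1e-06, and FPKM, which the authors' tool scaled to gene length and depth. The tool marked 31 values of 28 genes as failed, and these were kept as listed. Fragments in genes totalled 30439943 to 63875934 per library. The study's methods state fewer reads per L/Z library, without saying whether that figure covers these F1 hybrid libraries. If it does, the reason is not given in the sources used here, and the counting intervals may be too narrow. Counting intervals are 95% Poisson intervals, and those of ratios come from exact binomial (Clopper-Pearson) intervals of the 2 counts. Reads carried no molecular identifiers, so the intervals and the floor of 3 fragments cover counting error only.

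Genes with a mean of at least 1 FPKM over the 4 libraries were tested by the fold rule, 14416 of 23980. Changes are differences of log2(FPKM + 1) between the mutant and the controls averaged in FPKM, a scale that understates the change of low genes. A gene counted as higher or lower when FPKM + 1 lay more than 2-fold beyond both controls. No test belongs to this rule. edgeR 4.0.16 (quasi-likelihood test, TMM, filterByExpr, Benjamini-Hochberg) and, as an alternative, DESeq2 1.42.0 were run on the estimated counts rounded to whole numbers, in 3 groups. Line as a further term would leave 0 residual degrees of freedom in this model. With both mutants pooled it leaves 1, and that model was added after seeing the data. The scripts were tested on simulated data. Python 3.11.15 and R 4.3.3 were used.

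The controls differ in genotype and line, and nothing says that the libraries came from separate animals. In the model with 3 groups, p-values therefore measure the spread between these 2 libraries. With both mutants pooled and line as a block, they measure how far the difference of mutant and control disagreed between the 2 lines. In the pooled model without line, the spread between the 2 mutants enters as well. Line and any difference between sorts cannot be told apart. Named genes were all 9 members, Pld6 and Dnmt3l, and from each list of related genes those beyond both controls in either mutant, or otherwise the 2 with the largest change in each mutant. Marker genes given singly, Cbx3, Cers2 and Dclre1c were named after their values were seen. The older symbol Jhdm1d was read as Kdm7a. The members and lists were chosen with earlier results of these data known. Promoters came from the RefSeq table of GRCm38.p6, which held 11 start sites of 8 members. Alternatives were a pseudocount of 0.1, TMM-scaled counts, scaling to the L/Z markers, 1.5-fold, each control left out, no count filter and other size factors. Reads of retrotransposons were not analysed here.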

Additional observations from a re-analysis of the deposited data

Results flagged for a closer look

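For 4 members the mutant differed from the control of its own line in opposite directions in the 2 lines. Morc1 had a log2 difference of -0.30 in Pld6 KO and 0.35 in Dnmt3L KO, so that the effects differed by -0.65. Hells had -0.38 and 0.10, a difference of -0.49, and Suv39h1 had -0.42 and 0.06, a difference of -0.48. Setdb1 had -0.13 and 0.23, a difference of -0.35. Each effect compares 1 library with 1 library, and no test of the difference was made. The control of the Dnmt3L line was itself below that of the Pld6 line for all 4 genes.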

How the results depend on the processing

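The replicate numbers only name the controls and pair no libraries. Line pairs each mutant with a control, and with both mutants pooled 0 members were called by edgeR with line as a block (1358 of 18657 genes) or without it (0 genes, and 1706 at an unadjusted p under 0.05). The median of the members stayed at 0.27 to 0.33 in Pld6 KO and at -0.15 to -0.13 in Dnmt3L KO with a pseudocount of 0.1 or TMM-scaled counts. It ranged from -0.13 to 0.63 in Pld6 KO and from -0.43 to 0.17 in Dnmt3L KO when 1 control was left out. Scaled to the L/Z markers it was 0.81 and 1.01, beside 0.30 and 0.99 for all genes, and 2 members were counted as higher in each mutant (6.54% of all genes in Pld6 KO, 30.6% in Dnmt3L KO). At 1.5-fold 2 members were higher in Pld6 KO (5.88%). With 1 control left out, 0 to 3 members were higher in Pld6 KO and 0 to 1 lower in Dnmt3L KO: without Pld6 WT, Ehmt1, Cbx5 and Setdb1 were higher (8.64% of all genes), and without Dnmt3L Het, Hells was lower (13.7%). The number of members above the controls in both mutants, for which the alternatives were chosen after seeing the data, was 2 with TMM-scaled counts (12.3% of all genes), 9 when scaled to the L/Z markers (47.1%), and 2 to 8 with 1 control left out (8 without Pld6 WT, against 33%, and 2 without Dnmt3L Het, against 33.8%). The number above in both Pld6 line libraries was 7 with TMM-scaled counts (25.9%) and 0 when scaled to the L/Z markers (1.4%). Of 90 values of single members under an alternative, 77 differed from the main value by less than 1 SD of the 2 controls (log2 scale). The other 13 were all under scaling to the L/Z markers. Leaving out 1 of 2 controls could hardly move a value by more than that SD, so those alternatives tested little. The log2 differences of Cbx5 and Ehmt1 from the controls stayed above 0 in both mutants under each alternative run on single members. The lowest was that of Ehmt1 in Dnmt3L KO without Dnmt3L Het (0.05). Both mutants exceeded both controls for these 2 genes, so neither the pseudocount nor leaving out a control could have reversed the sign. Scaling to the L/Z markers raised the median of all genes in both mutants too. The edgeR and DESeq2 alternatives called 0 members. Without the count filter edgeR called 437 of 20568 genes in Pld6 KO and 429 in Dnmt3L KO, against 0 of 18657 with it. The cause was not tested. Leaving out a control in edgeR leaves 0 residual degrees of freedom, so no such test was made.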
